A study of Homo sapiens with 4 samples.

Results

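The mesenchymal state genes VIM, FN1, CD44, ZEB1, ZEB2, SNAI1 and SNAI2 were chosen by name, and their peaks were taken by gene symbol from NSUN2 RIP-seq of PANC-1 cells, an established line from a human pancreatic ductal adenocarcinoma. In RIP-seq a protein is captured by an antibody and the RNA bound to it is sequenced beside the input RNA of the lysate, and here the protein was NSUN2, a methyltransferase that makes m5C in RNA. The experiment had 4 libraries from wild-type cells, namely 1 immunoprecipitation (IP) and 1 input library after 24 h with 30 mM sodium lactate, and 1 of each after 24 h with the vehicle ddH2O. With 1 library per group no value below has a replicate error, no test between the conditions was possible, and every interval covers counting error only. Of the 7 genes, 6 had a peak over input in at least 1 of the lists, among 15017 gene symbols with a peak, and SNAI2 had none in either list. The 7 genes held 33 of the 48104 lactate peaks and 52 of the 95785 ddH2O peaks, and 63 of the 116484 merged peaks.

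Epithelial cells can shift towards a mesenchymal state, losing tight contacts and gaining motility, in a process known as epithelial-mesenchymal transition. ZEB1 and ZEB2 (zinc finger homeobox factors) and SNAI1 and SNAI2 (Snail and Slug) are transcription factors that repress epithelial genes such as CDH1. VIM (vimentin, an intermediate filament), FN1 (fibronectin, an extracellular matrix glycoprotein) and CD44 (the hyaluronan receptor) are effectors and surface markers of that state. In pancreatic cancer these genes are known for their association with invasion. PANC-1 is known as a line of a rather mesenchymal kind.

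Before the results, the labelled cell type was set against marker genes. The ductal keratins KRT7, KRT8, KRT18 and KRT19 each had a peak in both lists, and the densest KRT18 window reached a normalized read density of 2455 with lactate and 2254 with ddH2O in the IP libraries. EPCAM had 1 intron peak with ddH2O, and CFTR and SOX9 had none. None of the 4 acinar, 3 endocrine and 3 endothelial markers had a peak, while 1 of 5 fibroblast markers (COL1A1), 3 of 4 leukocyte markers (CD68, PTPRC and LYZ) and 1 of 3 neural markers (RBFOX3) did. A gene without a peak had none called over input in that list, which shows neither a lack of enrichment nor that its RNA was absent. Reads were few, with medians over all merged peaks of 5 per lactate window and 7 per ddH2O window.

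ZEB1 and CD44 carried most of the peaks on these genes in both lists. ZEB1 (ENSG00000148516) had 17 lactate peaks and 26 ddH2O peaks, and CD44 (ENSG00000026508) had 12 and 14, respectively. ZEB2 (ENSG00000169554) had 3 peaks with lactate and 6 with ddH2O. FN1 (ENSG00000115414) had 1 peak with lactate and 4 with ddH2O. VIM (ENSG00000026025) and SNAI1 (ENSG00000124216) each had a single peak, with ddH2O alone. Thus 4 of the 7 genes had a peak with lactate and 6 had a peak with ddH2O, in lists of which the ddH2O list was the longer.

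**Figure D1:**
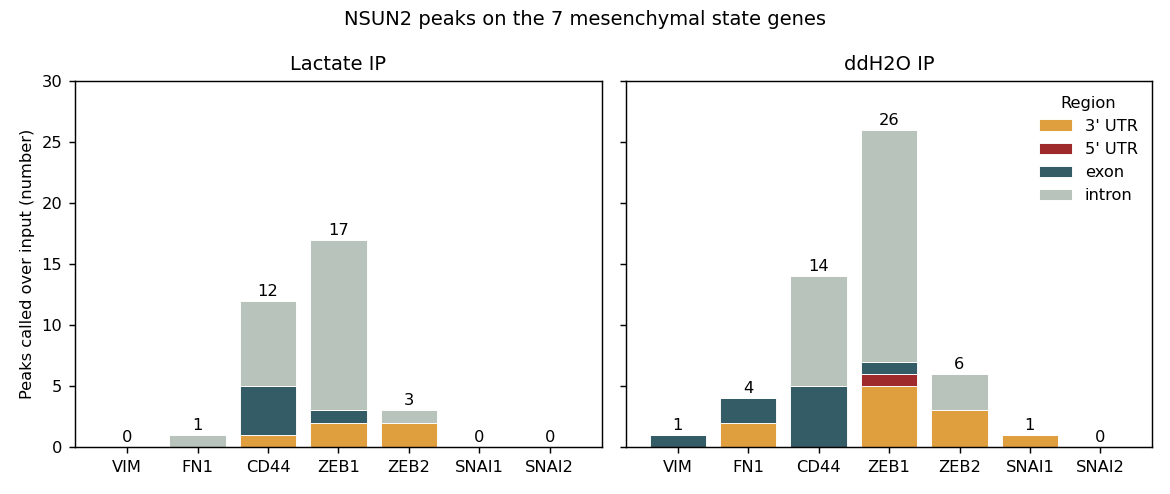
Number of peaks called over input (vertical axis) on each of the 7 genes in the lactate IP (left) and the ddH2O IP (right), with the transcript region of the authors' annotation in colour. ZEB1 leads with 17 and 26 peaks, mostly in introns, and SNAI2 has 0 in both.

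Longer genes offer more room for peaks, so the counts were also set against gene length. ZEB1 spans 211 kb in the RefSeq annotation of GRCh38.p14, ZEB2 136 kb, CD44 93.2 kb and FN1 75.2 kb, against 9.35 kb for VIM and 5.91 kb for SNAI1. With ddH2O, ZEB1 had 1.23 peaks and CD44 1.5 peaks per 10 kb, close to the median of 1.11 over protein-coding genes with a ddH2O peak. ZEB2 (0.44 per 10 kb) and FN1 (0.53 per 10 kb) lay lower, with 19.0% and 23.2% of those genes below them. With lactate the rates were 0.80 for ZEB1, 1.29 for CD44, 0.22 for ZEB2 and 0.13 for FN1, where the median was 0.67. Thus ZEB1, which had more ddH2O peaks than 95.8% of protein-coding genes, was an ordinary gene per length, whereas ZEB2 and FN1 were sparse in both lists.

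Introns held the largest share of the peaks on these genes, by the region in the authors' annotation. With lactate, 23 of 33 peaks lay in introns (69.7%, 95% Wilson interval 52.7 to 82.6%), where protein-coding genes had 61.5%. With ddH2O, 31 of 52 lay in introns (59.6%, 46.1 to 71.8%), where protein-coding genes had 61.2%. The 3' UTRs held 5 lactate peaks (15.2%, 6.65 to 30.9%) and 11 ddH2O peaks (21.2%, 12.2 to 34.0%), where protein-coding genes had 18.1% and 15.8%. All of these protein-coding shares lay inside the intervals of the 7 genes. Exons held 5 and 9 peaks, and the annotation does not separate coding from noncoding exons. The single 5' UTR peak lay in ZEB1 with ddH2O, and it was 143 kb from the 5' end of the RefSeq span.

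The peaks differed in how firmly they stood over input. Among the 33 lactate peaks 13 had a q-value below 0.05 (42.7% in the whole lactate list), and among the 52 ddH2O peaks 29 did (48.6% in the whole ddH2O list). With lactate these were 8 peaks of ZEB1 and 5 of CD44, so no FN1 or ZEB2 peak of the lactate list reached it. With ddH2O they were 14 of ZEB1, 9 of CD44, 2 of FN1, 2 of ZEB2 and the single peaks of VIM and SNAI1. The median fold enrichment over input was 3.76 with lactate and 3.37 with ddH2O, against 3.24 and 3.03 over peaks of protein-coding genes.

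The lists shared a good part of these peaks. With 1 base of overlap as the minimum, 22 of the 33 lactate peaks met a ddH2O peak (66.7%, 49.6 to 80.2%), against 58.5% of lactate peaks on protein-coding genes. In turn, 20 of the 52 ddH2O peaks met a lactate peak (38.5%, 26.5 to 52.0%), against 29.9%. With an overlap of 50% of both peaks, the lactate share was 36.4%, below the 39.8% of protein-coding genes. The ddH2O share was then 23.1%, against 20.7%. Among the 63 merged peaks, 20 were found in both lists, 11 with lactate alone and 32 with ddH2O alone. ZEB1 held 12 of the shared merged peaks, CD44 6 and ZEB2 2. In VIM, FN1 and SNAI1 no merged peak was shared.

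The level of a gene was taken as the normalized read density, in reads per kb of window after the rescaling of the authors, at 1 merged peak, that with the highest sum of the densities of both IP libraries. The window was taken to be 2000 bases, a length not given in the sources used here, and all reads and intervals below rest on it. It counts IP reads only, so the amount of a transcript and its binding cannot be told apart in it, and in bulk lysates fewer cells of a type and less RNA per cell cannot be told apart either. VIM stood first in both IP libraries, followed by ZEB1 and CD44. The counting intervals of these 3 genes did not overlap each other in either library. FN1, ZEB2 and SNAI1 followed with intervals that overlapped in both libraries, so their order cannot be given.

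**Figure D2:**
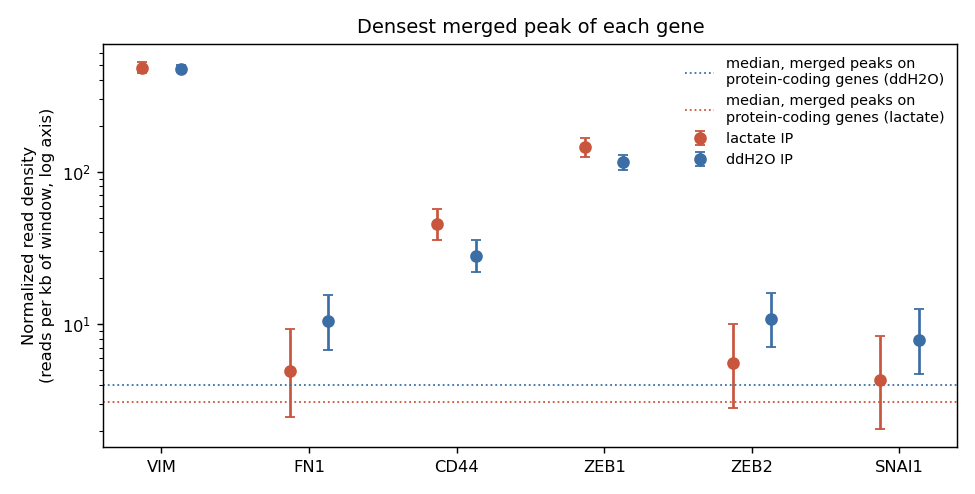
Normalized read density (reads per kb, log axis) of the merged peak with the highest summed density of each of the 6 genes with a peak, for the lactate IP and the ddH2O IP, with 95% Poisson intervals of the window reads. Dotted lines mark the median merged peak on protein-coding genes (3.09 lactate, 3.98 ddH2O). VIM lies at 483 and 474, while FN1, ZEB2 and SNAI1 lie between 4.32 and 10.8.

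VIM, the filament protein, had its single merged peak in an exon on chromosome 10 from 17235303 to 17235506 (GRCh38, as all coordinates here), and the density there was 483 for lactate (446 to 523) and 474 for ddH2O (450 to 499). This exceeded the densest merged peak of 98.7% of protein-coding genes in the lactate IP and of 99.0% in the ddH2O IP. The unscaled window reads were 615 with lactate and 1486 with ddH2O. The level of VIM was thus high in both IP libraries, although a peak over input was called with ddH2O alone. That peak had a fold over input of 1.99, at or above the fold of 18.2% of the ddH2O peaks, with a q-value of 3.5e-49. VIM therefore combined very many IP reads with a low enrichment over its input.

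The rescaling bears most on such dense windows. It is a straight line in the mean log2 density, and it added 1.30 to the log2 ratio of lactate over ddH2O at the VIM window but 0.22 at that of SNAI1. The deposited densities gave VIM a log2 ratio of 0.03 (-0.11 to 0.16, exact binomial interval of the reads). The reads were also scaled by library sums, leaving out MT-RNR2 and MALAT1 windows. These are sums of reads over the merged-peak windows, not whole library depths, and reads in overlapping windows count repeatedly. The sums were 1945000 with lactate and 3536821 with ddH2O, and by them the VIM ratio was -0.41 (-0.55 to -0.27). Under neither scaling did VIM reach a 2-fold difference, and the direction of the difference depended on the scaling.

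FN1, the matrix glycoprotein, had few reads in either IP library. Its densest merged peak lay in the 3' UTR on chromosome 2 from 215360489 to 215360688, with a density of 4.95 with lactate and 10.5 with ddH2O, from 8 and 22 reads. It lies just outside the RefSeq span of FN1, which starts at 215360865, and was assigned to FN1 by the authors' annotation. In the ddH2O list, the only one that called it, it had a fold over input of 1.82 and a q-value not below 0.05. The next 3' UTR peak and the exon peak beside it had 8 lactate and 19 ddH2O reads each in windows that overlap, so they do not stand for separate reads. These 3 merged peaks, within 1.13 kb at the 3' end, were found with ddH2O alone. The lactate list instead held an intron peak from 215369412 to 215369611, with 8 lactate and 4 ddH2O reads and a q-value of 0.98. The remaining ddH2O peak, in an exon from 215370339 to 215370538, lay close to it, with 5 lactate and 3 ddH2O reads in a window that overlaps that of the intron peak. No FN1 peak of a list thus overlapped a peak of the other list, and all were shallow.

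CD44, the hyaluronan receptor, had 19 merged peaks spread over the gene. That with the highest summed density lay in an exon on chromosome 11 from 35198066 to 35198966, with a density of 45.4 for lactate (35.6 to 57.0) and 28.2 for ddH2O (22.1 to 35.5). Before rescaling, 71 lactate reads and 70 ddH2O reads fell in the window. Its log2 ratio was 0.69 (0.19 to 1.18) by the deposited densities and 0.88 (0.39 to 1.38) by the library sums. The peak was the denser with lactate under both scalings, though it lay below 2-fold in each, and after centring on the median of all merged peaks its log2 ratio was 1.18, past 2-fold.

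The neighbouring exon peak of CD44, from 35196995 to 35197791, had nearly equal densities of 25.2 with lactate and 28.9 with ddH2O, the latter the highest of CD44 with ddH2O. Its window overlapped that of the exon peak from 35198066, so the windows share reads, and 13 of the 19 CD44 windows overlapped another. The enrichment of this neighbouring peak over input differed in the lists, however. The fold was 11.8 in the ddH2O IP, and 2.24 and 2.95 at the 2 lactate peaks inside it (q-values of 0.98 and 0.57). Conversely, the exon peak from 35198066 had the higher fold with lactate (5.84) and the lower with ddH2O (3.56). At both exon peaks the called peaks of the lists did not overlap by 50% of each, so the folds lie at partly different places. The highest CD44 fold in the lactate list, 8.41, lay in an intron at 35173244 to 35173568, where the ddH2O fold was 9.10. Intron merged peaks of CD44 called in 1 list alone held at most 22 reads per library, such as that from 35171318 to 35171811 with 16 lactate and 2 ddH2O reads. The single 3' UTR peak of CD44, called with lactate, had a fold of 2.16 and a q-value of 1.

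ZEB1, a repressor of epithelial genes, had its densest merged peak in the 3' UTR on chromosome 10 from 31526653 to 31527374. The density was 145 for lactate (126 to 166) and 115 for ddH2O (103 to 129), from 205 and 323 reads. This was above the densest peak of 92.6% of protein-coding genes with lactate and of 90.6% with ddH2O. The fold over input was alike in both lists, 7.91 with lactate and 7.75 with ddH2O. Its log2 ratio was 0.33 (0.06 to 0.58) by the deposited densities and 0.21 (-0.05 to 0.46) by the library sums. The ZEB1 3' UTR was therefore enriched over input in both IP libraries at nearly the same level.

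A second 3' UTR peak of ZEB1, from 31520473 to 31520833, was also found in both lists. It had a density of 29.8 in each library and folds of 4.51 with lactate and 3.45 with ddH2O. The other 3 merged peaks annotated to a 3' UTR of ZEB1 were called with ddH2O alone and held between 2 and 8 ddH2O reads.

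In addition, ZEB1 showed a dense run of intron peaks. Between 31461044 and 31479006 lay 11 merged peaks in 18.0 kb, each less than 5 kb from the next, of which 7 were found in both lists and 10 lay in introns. All of their windows overlapped a neighbouring window, so they share reads. Densities in the run reached 33.3 with lactate and 17.1 with ddH2O, and the highest fold on the 7 genes in each list lay in the run. The peak from 31469938 to 31470750 had a fold of 13.9 with lactate and 11.1 with ddH2O, and that from 31466060 to 31466781 had 10.3 and 17.6. These 2 intron peaks thus stood further above input than the ZEB1 3' UTR peaks, at a lower density than the densest of those, whereas the lactate peaks in the rest of the run had folds of at most 6.77.

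**Figure D3:**
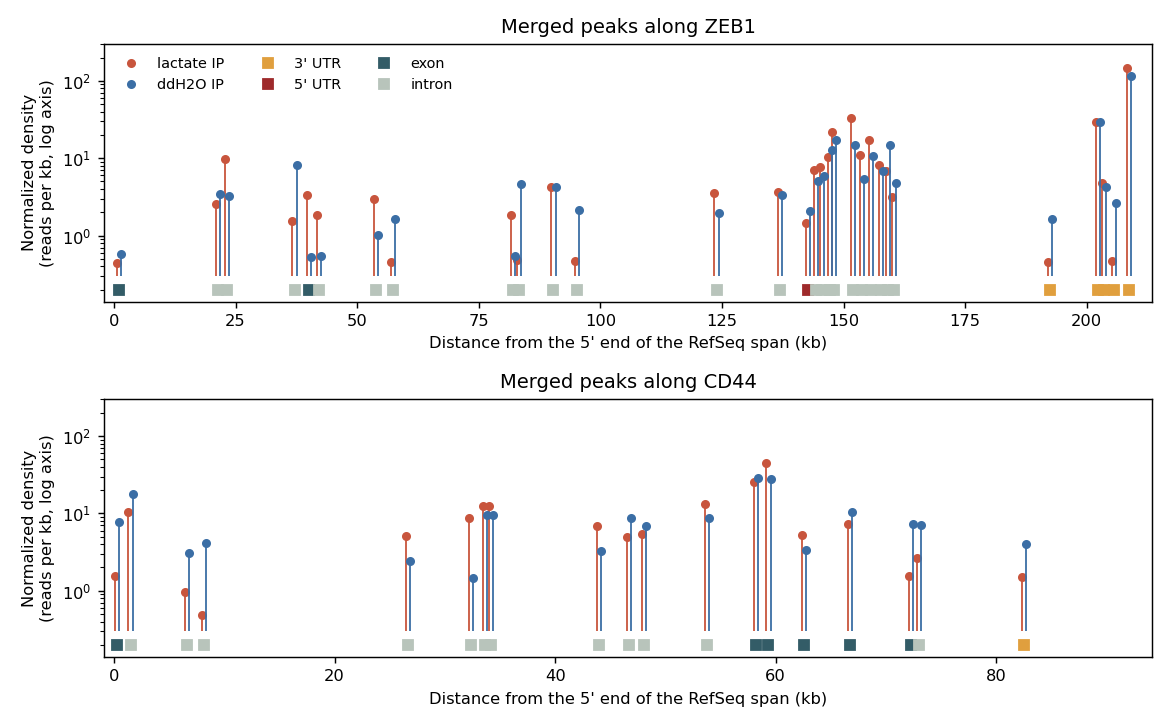
Normalized read density (log axis) of each merged peak against its distance in kb from the 5' end of the RefSeq span, for ZEB1 (top) and CD44 (bottom). Points of the lactate IP are drawn slightly left and those of the ddH2O IP slightly right of the peak, and squares give the region. ZEB1 shows the run of 11 merged peaks and, at the 3' end, the densest peak at 145 and 115, and CD44 reaches 45.4 with lactate and 28.9 with ddH2O, at neighbouring exon peaks.

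ZEB2, the paralogue of ZEB1, had 7 merged peaks of low density. Among them the ddH2O intron peak from 144375374 to 144375573 lies outside the RefSeq span of ZEB2, which starts at 144384081, and is counted with ZEB2 by the authors' annotation. That with the highest summed density lay in the 3' UTR on chromosome 2 from 144389190 to 144389905, with a density of 5.54 with lactate and 10.8 with ddH2O, from 9 and 23 reads. With lactate alone the neighbouring 3' UTR peak from 144388704 to 144388903 was denser, at 6.09 from 10 reads. The fold over input at the first of these was 2.73 with lactate, with a q-value of 0.98, and 7.15 with ddH2O, with a q-value of 5.1e-09. An intron peak from 144482794 to 144483096 was also shared, with a fold of 2.21 with lactate and 4.25 with ddH2O. Both shared ZEB2 peaks thus had the larger fold in the ddH2O list, from windows of at most 23 reads per library.

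SNAI1, the Snail factor, had 1 merged peak, in the 3' UTR on chromosome 20 from 49988606 to 49988925, called with ddH2O alone. Its fold over input of 8.80 was at or above that of 94.4% of the ddH2O peaks, with a q-value of 1.1e-12. The window held 7 lactate and 16 ddH2O reads, with densities of 4.32 and 7.86. Its log2 ratio was -0.86 (-2.49 to 0.39) by the deposited densities and -0.22 (-1.85 to 1.03) by the library sums. At this depth a difference between the IP libraries was not detectable for SNAI1. SNAI1 was thus the reverse of VIM, with a high fold over input on few reads.

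Merged peaks were then compared between the IP libraries, where a peak was called at a density ratio over 2 in windows with at least 20 reads in both libraries together. Of the 63 merged peaks 28 had that many reads. The windows of 41 of the 63 overlapped that of another merged peak, so the 28 are not separate counts. The CD44 intron peaks from 35172709 to 35172942 and from 35173201 to 35173568 each had the same 21 reads per library. By the deposited densities 3 of the 28 were higher with lactate, where 7.65% of all 37925 such merged peaks were, and 2 were lower, where 18.6% were. The 3 higher peaks lay in ZEB1 introns, and the 2 lower ones lay in a ZEB1 intron and the FN1 3' UTR. By the library sums 6 of the 28 were higher (17% of all) and none was lower (8.77% of all), 5 of the higher ones being ZEB1 introns and the other a CD44 intron. After centring on the median of all merged peaks, 6 were higher (18.5% of all) and none was lower (9.21% of all), 4 of them in ZEB1 introns and 2 in CD44. The median log2 ratio of the 28 was 0.01 by the deposited densities, against -0.20 over all such merged peaks, and 0.22 by the library sums, against 0.13.

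Among the ZEB1 intron peaks, that from 31469938 to 31470750 held 54 lactate and 35 ddH2O reads, with a log2 ratio of 1.16 (0.54 to 1.83) by the deposited densities and 1.47 (0.85 to 2.15) by the library sums. The peak nearer the 5' end, from 31341513 to 31341775, held 17 and 6 reads and had log2 ratios of 1.58 (0.31 to 3.35) and 2.23 (0.95 to 4.00). The third, from 31471709 to 31472543, held 19 and 11 reads, with log2 ratios of 1.03 (-0.06 to 2.30) and 1.60 (0.51 to 2.87). These 3 were called higher under both scalings, and the last had an interval that reached below 0 under the first.

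The lower calls rested on the scaling. The ZEB1 intron peak from 31477186 to 31478068, at the end of the same run, held 11 lactate and 33 ddH2O reads, with a log2 ratio of -1.14 (-2.36 to -0.21) by the deposited densities and -0.64 (-1.86 to 0.30) by the library sums. The FN1 3' UTR peak, which did not reach a q-value below 0.05 over input, had -1.08 (-2.56 to 0.04) and -0.49 (-1.97 to 0.62). Neither passed 2-fold by the library sums. Within 18.0 kb of ZEB1 there were therefore peaks called higher and a peak called lower with lactate by the deposited densities.

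**Figure D4:**
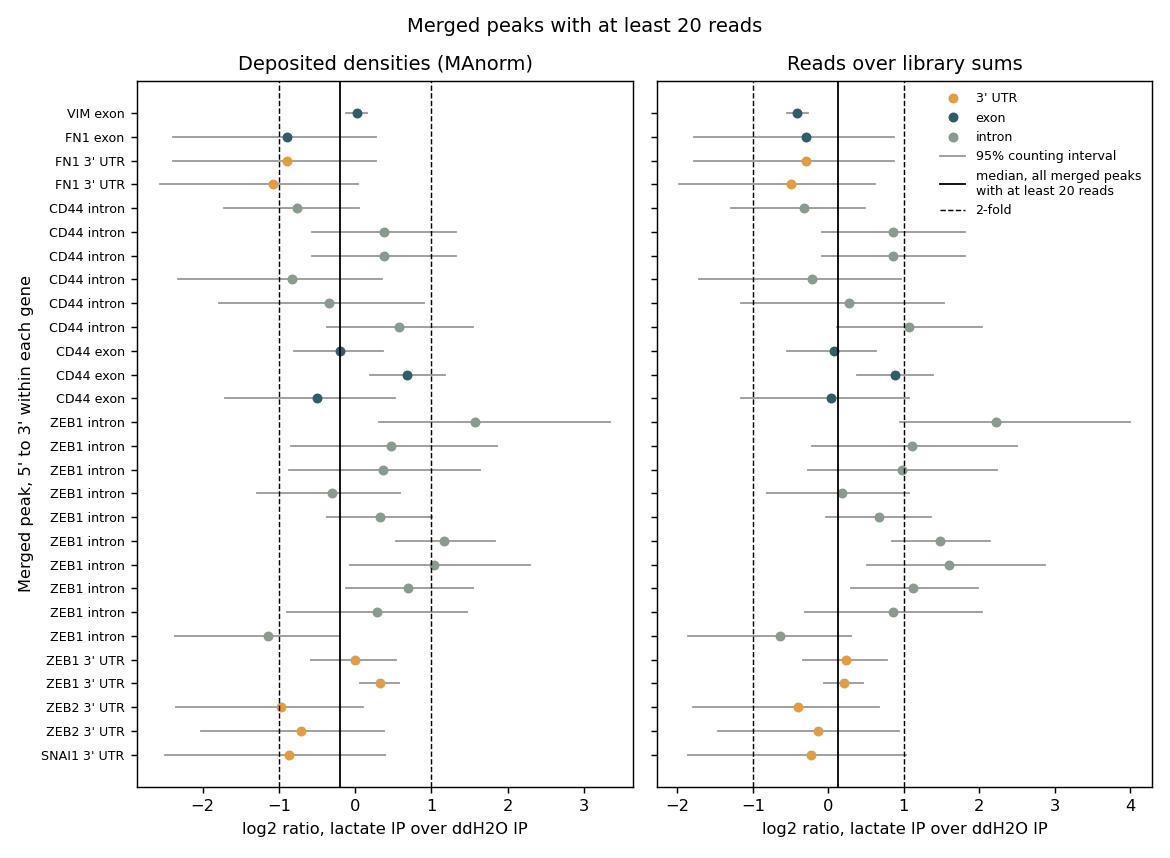
The log2 ratio of lactate over ddH2O at each of the 28 merged peaks with at least 20 reads, by the deposited densities (left) and by reads over library sums (right). Points are coloured by region, grey lines are 95% exact binomial intervals of the reads, the solid line is the median of all such merged peaks (-0.20 and 0.13) and dashed lines mark 2-fold. Most intervals cross the solid line, and ZEB1 intron peaks give both the highest ratio (1.58 and 2.23) and the lowest (-1.14 and -0.64).

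By region, the 16 intron merged peaks of these genes with at least 20 reads had a median log2 ratio of 0.37 by the deposited densities, against -0.03 over intron peaks of protein-coding genes. The 7 in 3' UTRs had -0.86, against -0.22. By the library sums the medians were 0.86 against 0.45 in introns and -0.22 against -0.02 in 3' UTRs. ZEB1 supplied 10 of the 16 intron peaks, many with overlapping windows, so these medians largely describe 1 gene. The 3' UTR values came from 2 merged peaks each of FN1, ZEB1 and ZEB2 and the SNAI1 peak. The 2 windows of FN1 overlapped each other, as did the 2 of ZEB2, so they share reads.

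Genes on the opposite strand touch some of these peaks. The library kit named in the labels does not mark strand, so reads from a gene and its antisense partner cannot be told apart. The ZEB1 exon peak from 31319270 to 31319469, called with ddH2O, lay within the RefSeq span of ZEB1-AS1. The CD44 peaks from 35211303 to 35211502 and from 35212014 to 35212354, also of the ddH2O list, lay within that of CD44-AS1. The antisense genes VIM-AS1, ZEB1-AS1 and ZEB2-AS1 each had 1 peak of their own with ddH2O, outside the spans of VIM, ZEB1 and ZEB2.

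The genes with the most similar peaks were sought by the Euclidean distance over 8 numbers, log2 of the peaks plus 1 in each of 4 regions and 2 lists, among 12396 protein-coding genes. Nearest to ZEB1 were STRBP (0.78), ITCH (0.88) and CAPZB (1.00), and nearest to CD44 were CAMSAP2 (0.59), BRWD3 (0.89) and PDS5B (0.90). POLDIP3 had the same 8 numbers as ZEB2, with CASTOR2 and DCLRE1C next (0.32), 2 of 3 genes tied at that distance. ANKRD30B, PINK1 and RLIM stood at 0.58 from FN1, 3 of 4 genes tied at that distance. For single-peak genes the measure says little, as 466 genes shared the numbers of VIM and 534 those of SNAI1.

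Finally, 25 further mesenchymal genes and 25 epithelial genes were taken for context. Of the mesenchymal genes 12 had a lactate peak and 16 a ddH2O peak, and of the epithelial genes 13 and 20. No peak was found for TWIST1, PRRX1, FOXC2, KLF8, GSC, S100A4, TAGLN, LOX and TNC in the first list, nor for OVOL1, CLDN3, RAB25 and PRSS8 in the second. By the deposited densities 1 of 34 mesenchymal merged peaks with at least 20 reads was higher with lactate (2.94%) and 9 were lower (26.5%), and 3 of 37 epithelial ones were higher (8.11%) and 9 lower (24.3%), where 7.65% and 18.6% of all such merged peaks were. The medians of these log2 ratios were -0.34 and -0.50, against -0.20 over all such merged peaks and 0.01 for the 7 genes. By the library sums the counts were 2 higher and 6 lower of 34, and 4 higher and 4 lower of 37, where 17% of all were higher and 8.77% lower.

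The higher mesenchymal peak lay in an intron of AXL, a receptor tyrosine kinase, with a log2 ratio of 1.72. The densest lower ones lay in exons of TPM1 (-1.75) and CALD1 (-1.56), which encode the actin-binding proteins tropomyosin and caldesmon, and in an intron of AXL (-1.05). In the epithelial list, the tight junction gene TJP1 had the higher peaks, the densest of them in an intron (1.56), and the densest lower ones lay in exons of the desmosome gene DSP (-1.08) and of TJP1 (-1.36). By the library sums these densest lower peaks were still past 2-fold in TPM1 (-1.36) and CALD1 (-1.07) but not in AXL (-0.58), DSP (-0.89) and TJP1 (-0.87), although DSP still had 3 lower peaks by that scaling (5 by the deposited densities) and TJP1 had 1 (4 by the deposited densities). AXL and TJP1 thus had merged peaks called in each direction, as ZEB1 did, by the deposited densities.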

How the data were processed

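NSUN2 RIP-seq libraries of PANC-1 cells, 1 IP and 1 input for lactate and 1 of each for ddH2O, were grouped by their labels. The submitters' processing notes name fastp 0.20.1, HISAT2 2.1.0, MACS2 2.2.7.1, bedtools 2.29.2, HOMER 4.11.1, DiffBind and the build GRCh38, without their roles. The authors called peaks in each IP against its own input, without pooling, and deposited a fold (ratio of IP over input) and a q-value per peak. The authors then merged the lists with MAnorm and deposited a normalized density (signal) of each IP per merged peak. Their M values and P-values, which compare the conditions, were not read. The log2 ratios by the deposited densities carry the same MAnorm rescaling, however, so they are not independent of that comparison. No sample column was left unused.

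Peaks were taken by gene symbol, and a merged peak by an overlap of at least 1 base with a called peak (bedtools 2.31.1), with the region of most shared bases. Window reads were computed back by undoing the MAnorm line in the mean log2 density (slope 0.17, intercept -0.20) and taking each density as 1 more than the reads, divided by the kb of the window, taken as 2000 bases. They came out whole in 100% of the windows, within 0.05 reads (widened in proportion for the largest counts), and the step was tested on simulated data. The simulation used the same window length, added read and straight form of line, so it cannot check those assumptions. The depth of the inputs, and of the IPs outside merged peaks, is unknown. Scaling by library sums (reads summed over merged-peak windows), with 1 read added, treats the sums as equal. Intervals are at the 95% level.

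The genes and lists were chosen with earlier results of these data known. Named beyond the 7 genes were the densest called peaks of each context list, up to 3 genes per direction, genes without a peak and the 3 genes of most similar pattern. Alternatives tried were a fold of at least 4, a q-value below 0.05, bases covered, an overlap of 50%, no read minimum, a ratio over 4, library sums, median centring and the median per gene. The tools were scipy 1.17.1, pandas 2.3.3 and numpy 2.4.6 under Python 3.11.15, and figures were drawn with matplotlib 3.10.9.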

Additional observations from a re-analysis of the deposited data

How the results depend on the processing

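No paired analysis was possible because lactate and ddH2O had a single IP library each, with no replicate numbers. No replicate could be left out either. With a fold minimum of 4 the 7 genes kept 13 lactate peaks and 20 ddH2O peaks (39.4% and 38.5%, where 35.3% and 32.4% of all peaks did), and with a q-value below 0.05 they kept 13 and 29. The 3' UTR shares of these peaks stayed within their Wilson intervals under both filters and by bases covered. When 50% of each peak had to be shared, the share of lactate peaks met by a ddH2O peak was 36.4%, against 39.8% for protein-coding genes, whereas with 1 base it lay above theirs. Without a minimum of reads the calls were 10 higher and 15 lower of 63 merged peaks (13.9% and 38.6% of all), while a ratio over 4 left 0 of 28 in each direction (1.12% and 4.55% of all). Both the library sums and median centring gave 6 higher and 0 lower, and over all merged peaks they moved the share of higher among called peaks from 29.2% to 66.0% and 66.8%. The overall median log2 ratio was -0.50 by the deposited densities and 0.07 by the library sums. An overlap of at least 50% of the merged peak left the counts at 3 and 2. For single genes, VIM moved beyond its counting interval under the library sums and median centring (0.52), ZEB1 under median centring (0.82), and CD44 when the median of its merged peaks (-0.35) replaced the densest. The cause was not tested. Depth limits most peaks, as 35 of the 63 had fewer than 20 reads and were not compared.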

Other observations

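Some peaks on these genes had next to no reads in the window that MAnorm counted. The ZEB1 exon peak at the 5' end of the gene, with a fold over input of 3.30 in the ddH2O IP, had 0 reads in both IP windows. The ZEB1 3' UTR peak from 31510516 to 31511053 had a fold of 5.46 and a q-value of 1.9e-05 with ddH2O but 2 ddH2O reads in its window. Fewer than 3 reads of their own library stood behind 4 of the 52 ddH2O peaks and 1 of the 33 lactate peaks of the 7 genes, against 12.8% of all ddH2O and 3.25% of all lactate peaks. Among peaks with a q-value below 0.05 this held for 1 of 29 ddH2O peaks and 0 of 13 lactate peaks of these genes, against 2.62% and 1.71% of all such peaks.

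A share of 31.7% of the merged peaks of the 7 genes was found in both lists, against 24.4% of those on protein-coding genes. In introns it was 15 of 38 (39.5%) against 18.6%, and in 3' UTRs 3 of 13 (23.1%) against 38.5%. ZEB1 supplied 10 of the 15 shared intron peaks, 7 of them in the run with overlapping windows, so the intron share largely describes 1 gene. These shares compare 1 lactate list with 1 ddH2O list and carry no replicate error.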
